A study of Mus musculus with 6 samples.

Results

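AP-1 is the family of transcription factors built from a Fos or Batf protein paired with a Jun protein. The 10 genes described here are Fos, Fosb, Fosl1 and Fosl2 of the Fos family, Jun, Junb and Jund of the Jun family, Batf and Batf3, and Atf3. They were chosen by name and not by their values, and each of the 10 was found by its Ensembl identifier in a table of 36811 genes. The libraries hold RNA of regulatory T cells (Treg) sorted by an EGFP reporter at Foxp3 from the spleen of C57BL/6 mice aged 18 to 21 weeks. The 3 libraries labelled cKO carry the genotype Bach2fl/fl Foxp3EGFP-Cre-ERT2, and the 3 libraries labelled WT carry Bach2+/+ Foxp3EGFP-Cre-ERT2. All 6 therefore share the EGFP and the Cre-ERT2 recombinase at Foxp3, the gene that defines Treg. Cre-ERT2 acts only after tamoxifen, and neither that treatment nor the deleted part of Bach2 is given in the sources used here. The labels are also silent on whether replicates are separate animals, and a p-value here compares libraries, whose spread may be technical.

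AP-1 dimers bind short palindromic DNA sites through a basic region and a leucine zipper. Bach2 is a repressor of the same structural class that pairs with small Maf proteins and can occupy sites that contain the AP-1 sequence, so that AP-1 activators and Bach2 compete for the same DNA in T cells. Fos, Fosb, Jun, Junb and Atf3 are immediate early genes, which T cells induce within minutes of receptor signals. Batf has no activation domain of its own and works with Jun proteins and the factor Irf4 on composite sites of effector T cell genes. The comparison of cKO with WT asks whether the RNA of these competitors differs between the floxed and the intact Bach2 genotype.

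RNA of Bach2 itself was not reduced in cKO. In replicates 1, 2 and 3, the order kept for all values below, it read 7.88, 9.19 and 6.44 FPKM (fragments scaled to transcript length and library size) for cKO against 3.29, 8.25 and 4.80 FPKM for WT, and the groups overlapped. The fitted log2 difference was 0.52, with 95% limits of -0.24 and 1.27 (limma, Benjamini-Hochberg adjusted p = 0.925). A value for the whole gene need not show the loss of a part of it, so the deletion could not be checked here. Each direction below is therefore that of the libraries as labelled. Treg markers were present in every library, with Foxp3 between 5.16 and 9.44 FPKM and Il2ra, the IL-2 receptor alpha chain, between 47.6 and 60.2 FPKM. Depth, as the FPKM scaling implies it, was read from the steps between low values and lay between about 3050000 and 5020000 fragments. It need not equal the number of fragments sequenced. Summed myeloid markers lay between 393 and 1180 FPKM in the libraries labelled cKO, highest in cKO 2, and between 384 and 459 FPKM in those labelled WT. Of the 11 myeloid markers none was listed at 0 throughout. Summed erythroid and platelet markers lay between 254 and 514 FPKM in cKO and between 95.5 and 231 FPKM in WT, and none of these 9 was listed at 0 throughout. Summed B cell markers lay between 124 and 164 FPKM in cKO and between 112 and 161 FPKM in WT. Cd79b alone lay between 80.5 and 112 FPKM. Summed markers of CD8 T cells and natural killer (NK) cells lay between 106 and 132 FPKM in cKO and between 83.4 and 105 FPKM in WT. Nkg7 carried most of that sum, at 83.3 to 107 FPKM in cKO and 59.6 to 79.2 FPKM in WT. Klrd1 and Klrb1c were lower in every library labelled cKO. The groups overlapped for Cd8a, Cd8b1, Ncr1 and Eomes. The part of all such cells in the AP-1 values was not tested.

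The promoters of the more abundant AP-1 genes are shown because AP-1 factors are known to act on their own genes. The 150 bases before the start of Jun, Fos, Junb and Batf are given from the RefSeq promoter table on GRCm38.p6, 5′ to 3′, with capitals for matches to TGACATCA, the variant AP-1 site known from the Jun promoter, and to TGACGT, the core of the cyclic AMP response element; the stretch of Junb holds neither. The FPKM values were made on an older mouse build, so these positions belong to the sequences alone.
Jun (chr4:95052223-95052372, minus strand): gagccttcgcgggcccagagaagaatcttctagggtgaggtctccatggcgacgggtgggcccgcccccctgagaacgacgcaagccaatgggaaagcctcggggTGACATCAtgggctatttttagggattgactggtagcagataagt
Fos (chr12:85473740-85473889, plus strand): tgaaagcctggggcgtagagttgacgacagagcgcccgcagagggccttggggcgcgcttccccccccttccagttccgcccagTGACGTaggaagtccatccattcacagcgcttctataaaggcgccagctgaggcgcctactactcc
Junb (chr8:84978749-84978898, minus strand): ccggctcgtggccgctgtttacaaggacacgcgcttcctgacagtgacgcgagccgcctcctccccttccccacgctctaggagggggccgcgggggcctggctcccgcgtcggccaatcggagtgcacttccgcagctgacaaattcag
Batf (chr12:85686570-85686719, plus strand): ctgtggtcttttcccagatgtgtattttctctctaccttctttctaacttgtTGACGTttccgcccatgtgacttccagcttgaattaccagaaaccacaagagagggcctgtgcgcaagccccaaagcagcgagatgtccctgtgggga

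Of the 10 genes 9 had an entry in the promoter table, and Fosl1 did not. Motifs were searched on both strands in the 250 bases before each start. The Jun promoter held TGACATCA at 45 to 38 bases before its start, a motif found in 2.93% of the 32851 promoters of the table. TGACGT lay at 66 to 61 bases before the start of Fos and at 98 to 93 bases before that of Batf, and its reverse complement at 8 to 3 bases before that of Atf3. This core occurred in 3 of the 9 promoters and in 6.47% of all promoters. The AP-1 site itself, TGANTCA with C or G at N, was in 0 of the 9 and in 4.46% of all promoters. The full cyclic AMP element TGACGTCA, which holds the core, was in 0 of the 9 and in 1.55% of all. TGCTGA, the Maf part of the sites that Bach2 and small Maf proteins bind, was in 0 of the 9 and in 16.1% of all. The CArG box, the site of serum response factor, was in 0 of the 9 and in 1.47% of all. These counts describe letters in this window and not binding.

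Treg of both genotypes expressed a narrow part of the family. Batf and Junb together made up between 80.2% and 86.3% of the summed FPKM of the 10 genes in each library, 84.3% to 86.3% in cKO and 80.2% to 83.01% in WT. Jun followed, Fos and Jund were lower than Jun, and Fosb, Fosl1, Fosl2, Batf3 and Atf3 were near the limit of detection. FPKM is scaled per length, so levels can be set side by side between genes, within the accuracy of the authors' transcript lengths.

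**Figure D1:**
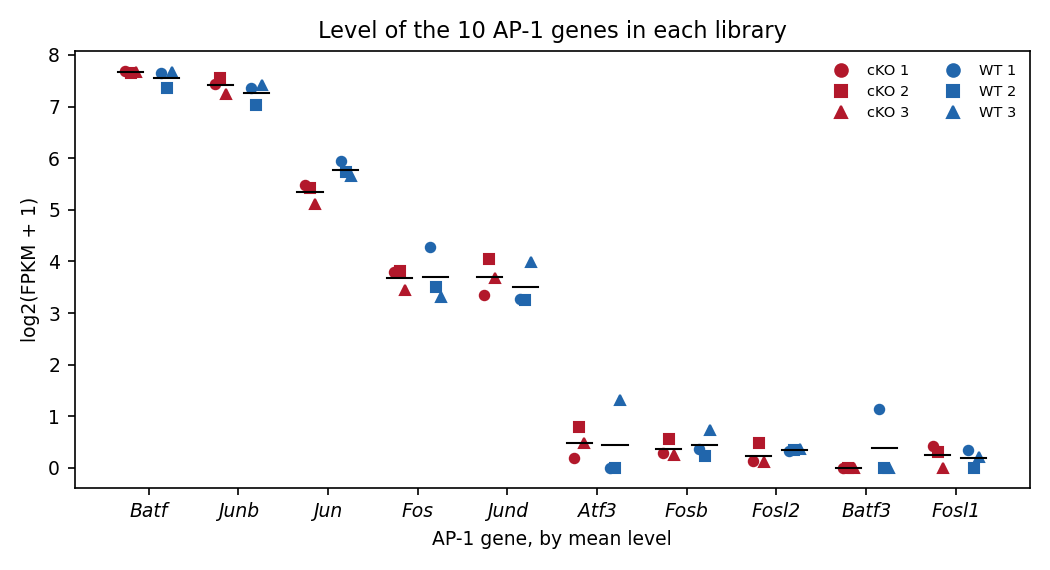
Level of each AP-1 gene in each library, on a log2(FPKM + 1) axis, with genes ordered by their mean over 6 libraries. Red marks are cKO, blue marks WT, the shape gives the replicate and the black line the group mean; Batf and Junb stand at the top in every library, Jun is the gene whose groups are apart, and 5 genes lie near 0.

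Batf, the Fos-like partner of Jun proteins in effector T cells, had the highest FPKM of the 10. It read 206, 201 and 201 FPKM for cKO against 199, 164 and 201 FPKM for WT. WT 2 was low and the other 5 libraries lay within a few FPKM of each other. Batf ranked between place 653 and place 827 among all rows of a library. The values of cKO 3 and WT 3 were identical, as were those of 417 of the 13416 genes above 0 in both, against 0 to 13 genes in the 14 other pairs of libraries. The estimated depths of these 2 libraries were close, at 3950000 and 3970000 fragments, and their part in the equal values was not tested. The mean was 203 ± 3.03 FPKM in cKO and 188 ± 21.2 FPKM in WT (SD, n = 3 each). The log2 difference of 0.11 had 95% limits of -0.19 and 0.42 (limma, adjusted p = 0.943), which span a change from 0.875-fold to 1.34-fold on the FPKM + 1 scale. Without WT 2 the log2 difference was 0.018.

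Junb, the Jun protein that pairs with Batf in Treg and helper cells, came next. It read 172, 188 and 151 FPKM for cKO against 163, 129 and 171 FPKM for WT, with WT 2 again the lowest and the groups overlapping. Its mean was 170 ± 18.5 FPKM in cKO and 154 ± 21.97 FPKM in WT (SD, n = 3 each), and the log2 difference of 0.15 (95% interval from -0.23 to 0.52) did not pass (limma, adjusted p = 0.937). The log2 difference was 0.024 without WT 2 and 0.072 without cKO 2. The 173 exon bases that Junb shares with Prdx2 on the opposite strand are 7.52% of its exon bases, and Prdx2, an abundant peroxidase, stood between 321 and 377 FPKM. SmartSeq2 libraries do not mark strand, so reads in such a stretch cannot be assigned to a gene by strand.

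Jun, which encodes the founding Jun protein and a stronger activator than Junb, was the only one of the 5 tested AP-1 genes whose groups did not overlap. It read 43.9, 42.1 and 33.6 FPKM for cKO against 60.4, 51.9 and 49.7 FPKM for WT. Every library labelled cKO lay below every library labelled WT. The means were 39.8 ± 5.50 FPKM and 54.0 ± 5.67 FPKM (SD, n = 3 each), 1.35-fold higher in WT, with about 423 to 873 fragments behind each value. The log2 difference was -0.43 (standard error 0.158, 95% limits of -0.81 and -0.056), at an unadjusted p of 0.0301 (limma). It did not pass over all genes (Benjamini-Hochberg adjusted p = 0.915), where it took place 375 when genes were ordered by p. In bulk RNA fewer cells with high Jun and less Jun per cell cannot be told apart. Junos, an antisense transcript that shares 232 bases (7.28%) with the Jun exon, read 16.0, 13.9 and 10.2 FPKM for cKO against 13.5, 21.9 and 17.7 FPKM for WT. Its log2 difference of -0.38 had the sign of that of Jun, its groups overlapped, and its part in the Jun values was not tested.

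Fos, a partner that strengthens the DNA binding of Jun, was low beside Batf, Junb and Jun. Its level exceeded that of 40.0% to 56.2% of the genes at 1 FPKM or more in a library. It read 12.9, 12.99 and 9.86 FPKM for cKO against 18.4, 10.4 and 8.90 FPKM for WT. The highest and the lowest value were both from WT, so the groups overlapped fully. The log2 difference was -0.017, with 95% limits of -0.69 and 0.66 (limma, adjusted p = 0.999). Its sign depended on single libraries, as it was 0.27 without WT 1 and 0.10 without cKO 3. Jund, a Jun protein that is expressed steadily in resting cells, read 9.20, 15.6 and 11.9 FPKM for cKO against 8.72, 8.51 and 15.0 FPKM for WT. The log2 difference of 0.19 (95% interval from -0.49 to 0.86) did not pass (limma, adjusted p = 0.959). More than any other AP-1 gene tested, Jund is uncertain as a single gene, because 52.6% of its exon bases lie under the antisense transcript Gm11175, itself at 9.75 to 21.0 FPKM.

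The remaining 5 genes had a mean under 1 FPKM and were left out of the main fit. A fit without this limit held all 10 genes, and 0 passed an adjusted p of 0.05 (limma). Fosb, which encodes a Fos protein close to Fos in activity, read 0.217, 0.467 and 0.197 FPKM for cKO against 0.288, 0.171 and 0.658 FPKM for WT. Its values were read as multiples of the weight of a fragment, as 3, 9 and 3 fragments in cKO and 5, 2 and 10 in WT. For Fosb, Fosl2 and Fosl1 this weight was chosen to bring all values of the gene near whole numbers. The largest departure for Fosb, 0.0513, is therefore no check of these numbers. Fosl2, or Fra-2, which lacks the activation domain of Fos, read 0.0907, 0.391 and 0.0826 FPKM for cKO against 0.253, 0.269 and 0.289 FPKM for WT, or 2, 12 and 2 against 7, 5 and 7 fragments. Fosl1, or Fra-1, rested on 2, 2 and 0 fragments in cKO 1, 2 and 3 and on 2, 0 and 1 in WT 1, 2 and 3, with values up to 0.341 FPKM. Ccdc85b on the opposite strand covers 57.2% of the exon bases of Fosl1, and its level was not analysed here. Atf3, a stress-induced repressor that pairs with Jun proteins, read 0.144, 0.723 and 0.393 FPKM for cKO, was listed at 0 in WT 1 and WT 2, and reached 1.48 FPKM in WT 3. Batf3 was listed at 0 in 5 libraries and stood at 1.20 FPKM in WT 1, so its only signal came from 1 library.

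The order of the 5 expressed genes was the same at its top in all libraries. Batf was above Junb in 6 of 6 libraries by a mean of 1.21-fold, Junb above Jun in 6 of 6 by 3.49-fold, and Jun above Fos in 6 of 6 by 3.88-fold. The order was taken from these libraries, so no test of it is given. By longest transcript, about 715 to 1704 fragments lay behind Junb and 478 to 963 behind Batf, with more for Junb in every library. The place of Batf above Junb therefore rests on the scaling by transcript length, which all libraries share. Fos was above Jund in 3 of 6 libraries, with a mean log2 gap of 0.096 ± 0.65 (SD, n = 6), so that their levels did not differ beyond that spread.

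Of the 5 AP-1 genes tested, 0 passed an adjusted p of 0.05 for cKO against WT (limma), and 1, Jun, had an unadjusted p under 0.05. Over all 11979 genes tested, 3 passed, or 0.0250%, and 5.37% had an unadjusted p under 0.05. The groups did not overlap in 1 of the 5 genes, and in 10.7% of all genes, with 3.75% of all genes apart and lower in cKO as Jun was. These shares set the scale for Jun, and 1 of 5 genes is too few to set against them. By value, 3 of the 5 were higher and 2 lower in cKO, where 55.0% of all tested genes were higher, the share to set beside each count above 0 given below. The median log2 difference of the 5 was 0.11 against 0.03 over all genes. It was 0.0086 without cKO 2 and 0.018 without WT 2, so that it rests on single libraries.

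**Figure D2:**
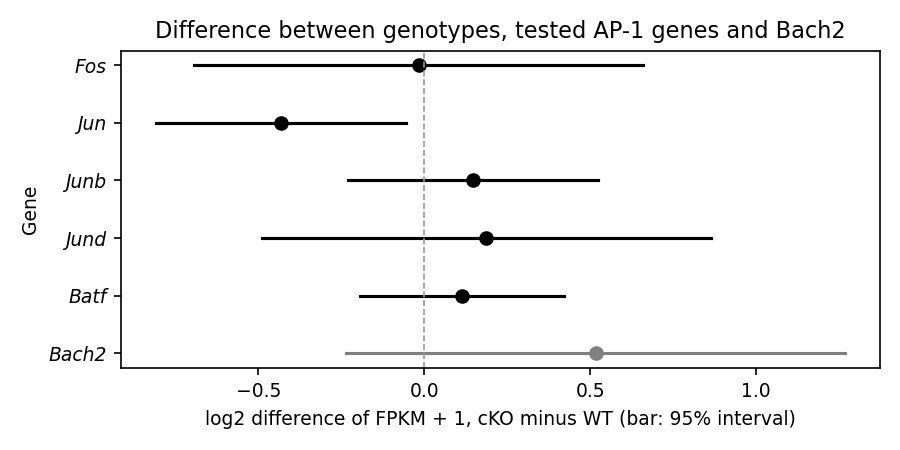
Log2 difference of FPKM + 1 between the libraries labelled cKO and WT for the 5 tested AP-1 genes (black) and Bach2 (grey), with 95% intervals from limma. Only the interval of Jun, from -0.81 to -0.056, leaves out 0, before any adjustment for the number of genes.

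The ratios of Jun to the more abundant Junb and Batf did not overlap between the labelled groups. Ratios within a library do not depend on how libraries are scaled to each other. The FPKM ratio of Jun to Junb was 0.255, 0.224 and 0.222 for cKO against 0.370, 0.401 and 0.291 for WT. Each library labelled cKO had less Jun per Junb than any library labelled WT. The ratio of Batf to Jun was 4.71, 4.78 and 6.00 for cKO against 3.30, 3.16 and 4.05 for WT, again with no overlap. Jun took 8.22% to 9.85% of the summed FPKM of the 10 genes in cKO and 11.1% to 14.2% in WT. The joint share of Batf and Junb given above was likewise apart, and it leaves out mainly the share of Jun. No test is given for these ratios and shares, since all of them depend on the values of Jun.

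The groups overlapped in the remaining ratios examined. The Jun family sum was 12.1 to 23.5 times the Fos family sum over the 6 libraries, and both ends of that range were from WT. Fos was 0.294, 0.309 and 0.294 of Jun for cKO against 0.304, 0.201 and 0.179 for WT. Batf stood at 26.2, 21.9 and 31.3 times Bach2 in cKO and at 60.6, 19.9 and 42.0 times Bach2 in WT. The AP-1 genes with a mean under 1 FPKM lay below Bach2 in each library. The Jun family sum lay between 23.0 and 70.5 times Bach2. Both ratios to Bach2 were highest in WT 1, where Bach2 stood at 3.29 FPKM. RNA ratios do not measure the amounts of protein.

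**Figure D3:**
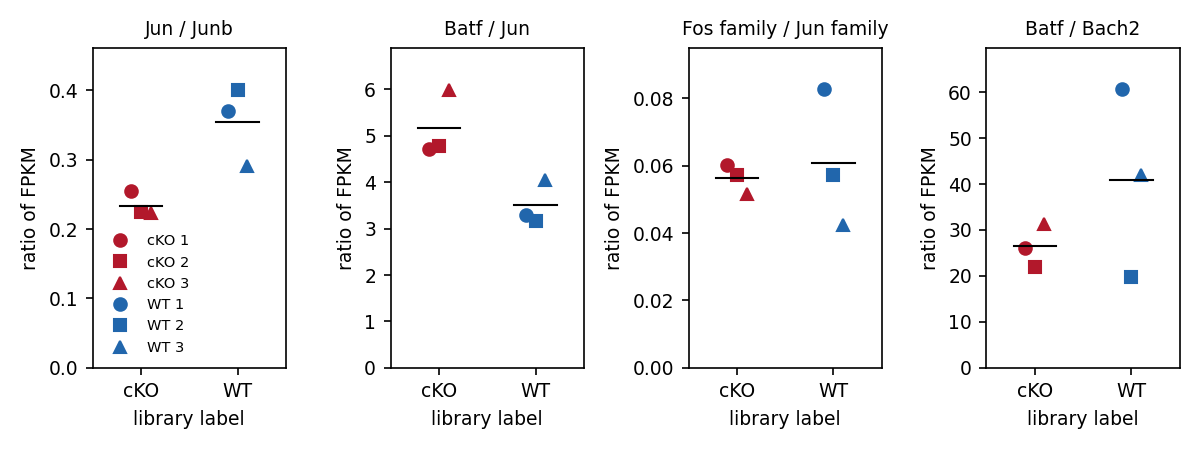
FPKM ratios within each library, from left to right Jun to Junb, Batf to Jun, the Fos family sum to the Jun family sum, and Batf to Bach2, each axis starting at 0. Points are libraries and black lines group means; the groups are apart in the 2 left panels, which share the values of Jun, and overlap in the 2 right panels.

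Profiles like those of Jun and Batf across the libraries were looked for among the 7540 protein-coding genes that averaged 5 FPKM or more. The 4 genes most like Jun over the 6 libraries were Dffa (Pearson r = 0.988), Sirt4 (0.984), Pcca (0.971) and Srpk1 (0.959). The 4 most like Batf were Pmf1 (0.981), Mrgbp (0.981), Tyrobp (0.974) and Guf1 (0.971). Among so many genes and only 6 libraries high values of r arise easily, so these names are a description. Among the expressed AP-1 genes, Junb and Batf were the most alike (r = 0.838), Jun and Fos had r = 0.489, and Jun and Batf had r = -0.32, over 6 libraries that share library depth and scaling.

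Other factors of the same structural class did not pass in any case. Of 28 listed genes of this class 27 had a row and 21 were tested, 0 passed in either direction, and 16 were above 0 with a median log2 difference of 0.09. Mafg, a small Maf partner of Bach2, read 6.01, 5.20 and 3.12 FPKM for cKO against 3.07, 2.64 and 2.02 FPKM for WT, without overlap (log2 difference 0.67, limma adjusted p = 0.925). Nfe2l1, an activator that also pairs with small Maf proteins, read 31.0, 23.2 and 17.6 FPKM for cKO against 35.5, 41.2 and 30.3 FPKM for WT, with cKO 1 inside the range of WT (log2 difference -0.58, limma adjusted p = 0.915). Batf2 and Jdp2, the other close relatives of Batf and Atf3, stayed under 1 FPKM in every library.

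Of the tested kinases that switch AP-1 proteins on, their phosphatases and the enzymes that degrade Jun, none passed. Spry2 and Spred1, inhibitors of this signalling, and Rfwd2, a ubiquitin ligase for Jun, stayed under 1 FPKM in every library and were not tested. Of 21 tested genes of the MAP kinase input, 15 were above 0 with a median log2 difference of 0.09. Map2k4, which activates the Jun kinases, read 23.3, 26.1 and 22.8 FPKM for cKO against 15.6, 21.7 and 13.4 FPKM for WT, without overlap (log2 difference 0.51, limma adjusted p = 0.915). Elk3, a factor of serum response sites, stood at 20.5 ± 2.03 FPKM in cKO and 16.4 ± 0.444 FPKM in WT (SD, n = 3 each). Of 12 tested phosphatases and inhibitors, 10 were above 0 with a median of 0.17. Dusp1, which dephosphorylates MAP kinases and is itself an immediate early gene, read 63.9, 55.8 and 57.4 FPKM for cKO against 36.5, 49.0 and 52.5 FPKM for WT, every library labelled cKO being higher (log2 difference 0.37, limma adjusted p = 0.925). Dusp10, a phosphatase of Jun kinases and p38, stood at 11.9 ± 4.16 FPKM in cKO against 8.11 ± 0.426 FPKM in WT (SD, n = 3 each), with 16.6 FPKM in cKO 2, without which the log2 difference was 0.21 in place of 0.46. Of 11 tested genes of Jun and Fos protein turnover, 5 were above 0 with a median of -0.067. Usp28, a deubiquitinase, read 7.78, 2.25 and 5.01 FPKM for cKO against 6.76, 7.87 and 7.20 FPKM for WT. Det1, part of a ubiquitin ligase for Jun, read 20.5, 9.78 and 19.0 FPKM for cKO against 17.5, 23.2 and 20.5 FPKM for WT. Both were low in cKO 2, without which the log2 difference went from -0.57 to -0.19 for Usp28 and from -0.35 to -0.032 for Det1.

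Partners on composite DNA sites were measured alongside Batf and Jun. Of 10 tested partners, 6 were above 0 with a median log2 difference of 0.09, and 0 passed. Irf4, the main partner of Batf in effector T cells, read 7.27, 4.81 and 5.90 FPKM for cKO against 4.66, 7.01 and 4.502 FPKM for WT, which is 0.0224 to 0.0428 of Batf. Irf8, which can take the place of Irf4 beside Batf, was more abundant and read 108, 81.5 and 99.5 FPKM for cKO against 78.8, 78.5 and 64.0 FPKM for WT, without overlap (log2 difference 0.38, limma adjusted p = 0.925). Nfatc2, a calcium-driven partner of Fos and Jun, read 14.2, 5.64 and 14.8 FPKM for cKO against 14.1, 18.4 and 15.5 FPKM for WT, low in cKO 2 alone.

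Genes induced together with Fos and Jun were divided. Of 17 tested immediate early genes outside AP-1, 11 were above 0 with a median log2 difference of 0.06, and 0 passed. Egr2, a zinc finger factor induced by receptor signals, read 30.8, 31.6 and 31.5 FPKM for cKO against 43.3, 42.9 and 40.1 FPKM for WT, lower in every library labelled cKO as Jun was (log2 difference -0.41, limma adjusted p = 0.874). Myc, a factor that drives cell growth, read 72.1, 73.9 and 82.8 FPKM for cKO against 97.3, 100.4 and 85.7 FPKM for WT, also without overlap (log2 difference -0.30, limma adjusted p = 0.925). Dusp1 of the phosphatase list was on the other side, and these 3 genes, Egr2, Myc and Dusp1, were named for their small p. Rgs1 of the immediate early list, chosen after its values were seen, was also higher in every library labelled cKO. It read 321, 342 and 385 FPKM for cKO against 291, 269 and 295 FPKM for WT. Heat shock genes, which warm dissociation and sorting raise together with Fos and Jun, had a median of 0.02 over 9 tested genes, with 5 above 0, and summed to 3486 to 3831 FPKM in cKO and 3349 to 4052 FPKM in WT. Hspa8 and Hsp90ab1 carry most of that sum. Hspa1a, Hspa1b and Hspb1 were low and lay on the side of Jun, and of them only Hspb1 was tested. The rest of the list was split, with overlapping groups throughout. Hsp90aa1, Hsp90ab1, Hspe1, Hspd1 and Hsph1 had higher means in cKO, and Hspa8, Dnajb1 and Dnaja1 had lower means. Hspa1a read 0.659, 0.338 and 0 FPKM for cKO against 0.825, 1.45 and 1.89 FPKM for WT, and was under the limit for a test. Hspb1 read 0, 0.525 and 0.897 FPKM for cKO against 2.35, 1.75 and 0.897 FPKM for WT, where cKO 3 and WT 3 met (log2 difference -0.87, limma adjusted p = 0.925). The part of these genes in the values of Fos and Jun was not tested.

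Genes described elsewhere as controlled through AP-1 or Batf-Irf4 sites were mostly higher in the libraries labelled cKO. Of 18 tested genes of that list, 17 were above 0 with a median log2 difference of 0.66, against 55.0% above 0 and a median of 0.03 over all genes. None passed over all genes (limma, lowest adjusted p = 0.748), while 8 had an unadjusted p under 0.05 and 9 had groups that did not overlap, each higher in cKO. Over all genes 3.59% had such a p and 6.96% were apart in that direction. The 8, named after their values were seen, were Ccl4, Icos, Prdm1, Il10, Il4, Ifng, Gzmb and Hmox1. Ccl4, a chemokine of activated lymphocytes and myeloid cells, read 3.35, 10.04 and 7.12 FPKM for cKO against 1.34, 0.663 and 1.02 FPKM for WT (log2 difference 1.88, limma adjusted p = 0.748). Icos, a costimulatory receptor of effector Treg, read 129, 149 and 180 FPKM for cKO against 93.2, 90.7 and 74.4 FPKM for WT (log2 difference 0.81, limma adjusted p = 0.748). Il2 and Cd69, textbook AP-1 targets of acute stimulation, showed overlapping groups, with Cd69 at 79.0 ± 7.58 FPKM in cKO and 76.2 ± 8.59 FPKM in WT (SD, n = 3 each). The list holds several effector Treg genes, was written with earlier results of these data known, and gives no support of its own for a direction. Myeloid markers, 7 of 8 tested above 0 with a median log2 difference of 0.46, and erythroid markers, 5 of 5 with a median of 1.25, lay on the same side, and their part in these values was not tested.

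**Figure D4:**
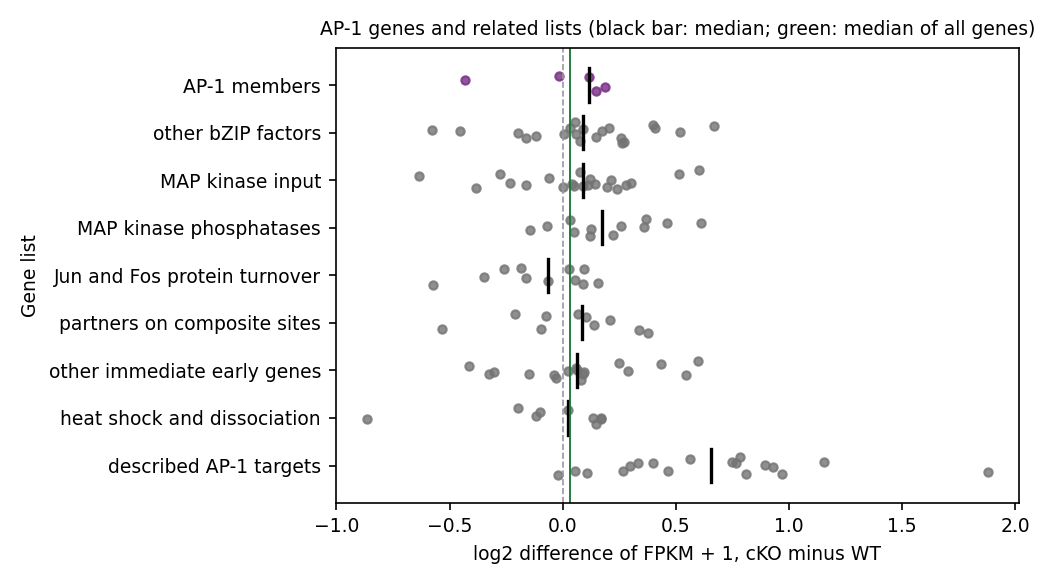
Log2 difference of FPKM + 1, cKO minus WT, for each tested gene of the AP-1 family (purple) and of related lists (grey), with black bars for list medians and a green line for the median of all 11979 genes. The AP-1 genes lie around 0 with Jun at -0.43, while the list of described targets has its median at 0.66.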

How the data were processed

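Treg were enriched for CD4+ cells and sorted, and SmartSeq2 libraries were sequenced on an Illumina instrument, as the labels' protocols state. The submitters' processing notes name HISAT2, cutadapt and FastQC and the mouse builds mm9 and NCBIM37, without versions. The authors deposited FPKM values for 36811 genes in 6 libraries, made with cuffnorm per the file name. No annotation, strand setting or filter is named in these sources. Symbols matched 31840 identifiers.

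Genes averaging 1 FPKM or more were tested on log2(FPKM + 1) with limma 3.58.1 in R 4.3.3, with a variance trend and Benjamini-Hochberg adjustment over 11979 genes at 0.05. This scale understates changes of low genes. No count test was run. Depth was estimated from 1-fragment steps in genes with a single transcript of at least 2000 bases (GENCODE M21), and fragment numbers of a gene use its longest transcript or its own steps. FPKM sums lay between 1502820 and 1940810.

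The AP-1 genes and the lists were chosen with earlier results of these data known. Named are the 10 genes, Bach2, Foxp3, and from each list up to 2 genes with the smallest p, not all of which are printed. Others, such as Il2ra, Il2, Cd69, Irf4, Batf2 and Jdp2, and the genes that overlap AP-1 exons, were chosen after their values could be seen. Simulated tables of the 11979 genes, with 200 changed between cKO and WT and independent normal noise, served as a check. The changed genes were drawn from those at about 5 FPKM or more, so recovery at lower levels was not measured. The procedure recovered 14.2% of 2-fold and 82.2% of 4-fold changes, with 4.51% and 5.43% of calls false, as means of 10 simulations. Alternatives were 2 other pseudocounts, 2 filters, 3 scalings, 2 variance models, a replicate block, library weights, and fits without each library. Tables and figures used pandas 2.3.3, numpy 2.4.6 and matplotlib 3.10.9 under Python 3.11.15.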

Additional observations from a re-analysis of the deposited data

How the results depend on the processing

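In none of the 17 alternatives did an AP-1 gene pass, and the lowest adjusted p was 0.292 for Jun with library quality weights (limma). The log2 difference of Jun stayed between -0.62 and -0.28, and Junb, Jund and Batf stayed above 0, at 0.0076, 0.0086 and 0.0056 at their lowest. Fos changed sign with equal sums (0.13), was at -0.35 with library quality weights and ranged from -0.21 to 0.27 without 1 library. Foxp3 was at -0.091 with library quality weights and ranged from -0.065 to 0.25 without 1 library. With equal sums, which moved the median of all genes from 0.03 to 0.18, the median over the tested AP-1 genes was 0.27; it was 0.0056 after quantile normalization, 0.0076 with library quality weights and 0.0086 to 0.17 without 1 library, against 0.11. The 3 genes that passed overall were 5 to 15 without 1 library, and 1 under the replicate block. The replicate numbers did not mark pairs (correlations of deviations of -0.06, -0.18 and -0.017), so the block is not read further. Of the described targets, 15 of 17 were above 0 after quantile normalization, 18 of 18 with equal sums, 17 of 18 with trimmed-mean scaling and 10 of 10 at a minimum of 5 FPKM, and the count with an unadjusted p under 0.05 fell from 8 to 5 with the block and to 4 without cKO replicate 3, 5 without each of cKO replicate 2 and WT replicates 1, 2 and 3, and 6 without cKO replicate 1. These settings for the targets were chosen after seeing the data. The cause was not tested. With 3 libraries against 3, changes of 2-fold or less were mostly not detectable.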
